A study of Mus with 8 samples.

Results

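C/EBPβ binding was mapped by ChIP-seq in the mouse preadipocyte line 3T3-L1. The regions described here gained a C/EBPβ peak after adipogenic induction in both cell populations. Their fold enrichment over input was not higher when Prep1 was down-regulated. The C cells carried a scrambled hairpin and the P cells a lentiviral hairpin against Prep1, and both were puromycin-selected populations of the same line. Each rests on a single hairpin, and the level of Prep1 in the cells was not analysed here. Cells were fixed either 2 days before the start of induction (day −2) or 4 h after it, the inducing medium holding insulin at 1 μg/ml, dexamethasone at 1 μM and the phosphodiesterase inhibitor IBMX at 0.5 mM. The series holds 8 samples, namely 4 ChIP libraries and 4 input libraries, with 1 sample per group, so no test between conditions was possible and all values below describe these libraries.

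The peaks of the 4 lists were merged into 28658 regions, and 9787 of these had a peak in both 4 h lists and in neither day −2 list. They are called induced shared regions. For each of them the highest fold enrichment of each 4 h list was taken, which is the ratio of ChIP fragments to the local input background at the peak summit, with 1 added to both terms. It was no higher in P than in C cells at 1778 regions, or 18.2% (95% Wilson interval 17.4 to 18.9), and it was higher in P cells at the other 8009. The 1778 are called the non-stronger regions, a name that refers to the fold enrichment alone. P cells had more ChIP fragments than C cells at 969 of them (54.5%, against 87.7% of all induced shared regions). They were chosen by the fold enrichment at 4 h, so that value and the others from the same libraries are given as a description, with no test. None of the 1778 had exactly equal folds.

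C/EBPβ is a basic leucine zipper transcription factor that is switched on within hours of the hormonal cocktail and marks many of the early adipogenic enhancers, where it acts before Pparγ and C/EBPα. Dexamethasone acts through the glucocorticoid receptor, IBMX raises cAMP and insulin signals through Akt. Prep1 is a homeodomain transcription factor of the TALE class. Coordinates below are mm9, counted from 1. Genes, sequence and motifs at the regions were not analysed here, since the annotation used here is of another build.

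The depth recovered from the genome background was between 7.82 and 7.85 mln reads for the 4 lists, and the 4 h lists held 13525 peaks (C) and 26713 peaks (P). The fragment lengths at 4 h were 164 bp (C cells) and 159 bp (P cells), and the median peak of the whole 4 h lists had a fold enrichment of 9.07 in C cells and 10.9 in P cells. Whole numbers of fragments at the summit could be recovered for 100% of peaks in each list, which gives every fold enrichment its numerator, the ChIP fragments, and its denominator, the input background.

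The median fold enrichment of the non-stronger regions was above that of the other induced shared regions in C cells and below it in P cells, an order that the rule favours, and the ranges overlapped. Their fold enrichment in C cells ran from 2.57 to 44.8, with a median of 11.5 and quartiles of 9.01 and 15.0. In P cells it ran from 2.50 to 40.8, with a median of 8.79 and quartiles of 6.99 and 11.5. The other induced shared regions had a median of 8.73 in C cells and 15.9 in P cells. The median log2 P/C ratio of fold enrichment was −0.30 (−0.31 to −0.28) over the non-stronger regions and 0.60 over all induced shared regions.

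The P fold was between 0.8 and 1 times the C fold in 946 of the 1778 regions (53.2%, against 9.67% of all induced shared regions), and within 10% of the C fold in 523 (29.4%, against 11.01%). A P fold between 0.8 and 1 times the C fold meets the rule by itself, so the 9.67% are the same 946 regions. The rule favours the second share. The P fold was at most 0.5 times the C fold in 92 of the 1778 regions, or 5.17%. Such a fold also meets the rule by itself, so the 0.94% of all induced shared regions are the same 92. The lowest log2 ratio was −1.93. The −log10 p was under 10 in C cells at 47 of these regions (2.64%, against 12.01% of all induced shared regions) and in P cells at 199 (11.19%, against 2.56%), a contrast that the rule favours. In both lists it was at least 10 at 1572 regions and at least 50 at 65, and these shares of 88.41% and 3.66% were close to the 86.27% and 3.61% of all induced shared regions.

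**Figure D1:**
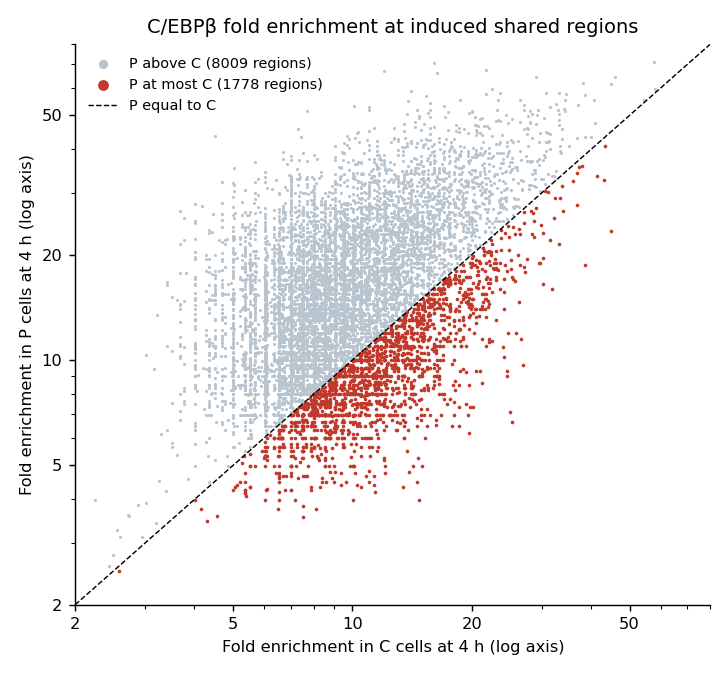
Fold enrichment of each induced shared region in C cells (horizontal, log axis) and in P cells (vertical, log axis) at 4 h, with non-stronger regions in red, the others in grey and a dashed line at equality. The 1778 red points lie below the line by construction, with 946 at 0.8 times the C fold or more and 92 at no more than 0.5 times the C fold.

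Fold enrichment was then divided into its numerator and denominator. At the non-stronger regions the median number of ChIP fragments at the summit was 20 in C cells (quartiles 15 and 27) and 21 in P cells (quartiles 16 and 29). The other regions had a median of 17 fragments in C cells and 30 in P cells. The median log2 P/C ratio of fragments was 0.10 at the non-stronger regions, with quartiles of −0.22 and 0.42. P cells had more fragments than C cells in 969 of the 1778 regions, or 54.5%, against 87.7% of all induced shared regions. The numbers were equal in 118 (6.64%, against 2.6% of all induced shared regions). P cells had fewer fragments in 691, or 38.9% (36.6 to 41.2), against 9.72% of all induced shared regions. At most as many fragments in P as in C cells were thus found in 809 non-stronger regions (45.5%), where the share over all induced shared regions was 12.3%.

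The input background at the summit was higher in P cells at 1518 of the 1778 regions, or 85.4% (83.7 to 86.9), and the share over all induced shared regions was 56.7%. Its median was 0.82 fragments (C) and 1.43 fragments (P), or 1.71 and 3.11 times the genome background of the same library. At the other induced shared regions these multiples were 2.09 (C) and 2.17 (P). The median log2 P/C ratio of background was 0.96 (0.87 to 1.01) at the non-stronger regions and 0.0017 at the others. Both terms belong to the same fold enrichment that chose the regions.

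These terms divided the non-stronger regions into 4 classes. The largest class had more fragments in P cells and held 969 regions. Its median fragments were 18 in C and 25 in P cells, and its median background was 0.73 in C and 2.00 in P cells. The 118 regions with equal fragments had median backgrounds of 0.78 and 1.00. A higher P background in these 2 classes is fixed by arithmetic, since with no fewer fragments in P cells the rule cannot be met without one. A further 431 regions (24.24%, against 4.4% of all induced shared regions) had fewer fragments and a higher background in P cells. Their median fragments were 23 in C and 18 in P cells, and their log2 fold ratio had a median of −0.51. That combination meets the rule by arithmetic, so none of the other induced shared regions had it. The last class had fewer fragments and no higher background in P cells. It held 260 regions, or 14.6% (13.1 to 16.3), with median fragments of 21 in C and 16 in P cells, and the log2 fold ratio had a median of −0.19. Fewer fragments with no higher background were found at another 260 induced shared regions whose fold enrichment was higher in P cells. Of the 1778 regions, 1087 (61.1%) had at least as many fragments and a higher background in P cells, a combination found at 52.3% of all induced shared regions.

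**Figure D2:**
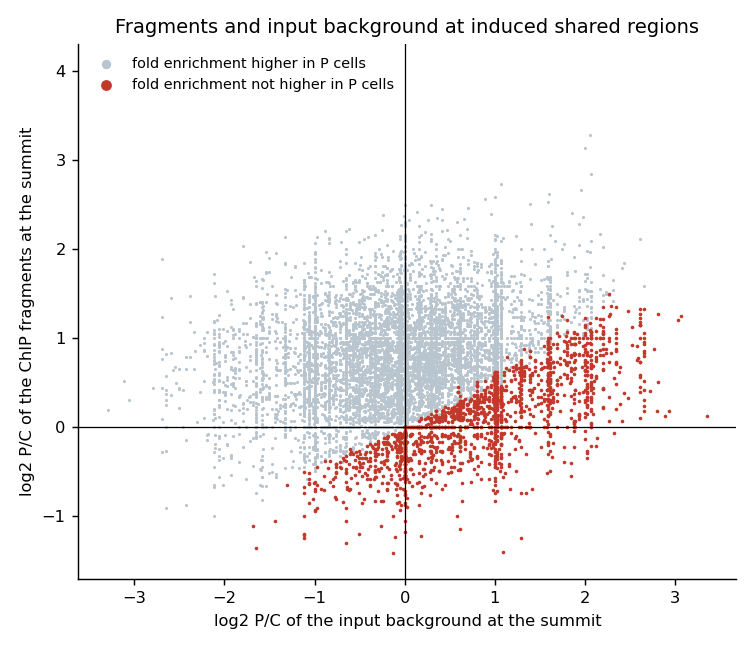
The log2 P/C ratio of the input background (horizontal) and of ChIP fragments (vertical) at the summit of each induced shared region, with non-stronger regions in red and the others in grey. Most red points lie to the right of 0, where the P background was higher (1518 of 1778), and 969 of them lie above 0, where P cells had more fragments. Backgrounds set by equal numbers of input fragments over the summit lie just right of 0, through the scaling of the C input.

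The background of the peak caller is the highest of several input windows, and where the window of 1 fragment length decides, it equals the whole number of input fragments lying over the summit. In P cells 837 of the 1778 non-stronger regions, or 47.1%, had a background set by 2 or more input fragments over the summit, against 11.7% of the other induced shared regions. In C cells this was the case at 3.8% of the non-stronger regions and at 17.1% of the others. The background is the denominator of the fold that the rule compares, so the rule itself makes membership more frequent with more P input and less frequent with more C input, and the shares are a description. The share of induced shared regions that were non-stronger was 9.8% where another window set the P background, 16.2% with 1 input fragment over the summit, 40.1% (37.5 to 42.8) with 2, 64.7% (59.6 to 69.5) with 3 and 71.4% (62.7 to 78.8) with 4 or more. Across these P input classes the median log2 P/C ratio of ChIP fragments stayed between 0.68 and 0.81. By the C input the share fell up to 3 fragments. The share was 22.4% where another window set the C background, 16.5% with 1 fragment, 5.3% with 2 and 0.9% (2 of 231 regions) with 3. With 4 or more it was 8.1% (3.5 to 17.5), from 5 of 62 regions. Across the C input classes, in the same order, the median log2 P/C ratio of ChIP fragments was 0.71, 0.69, 0.65, 0.64 and 0.44.

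**Figure D3:**
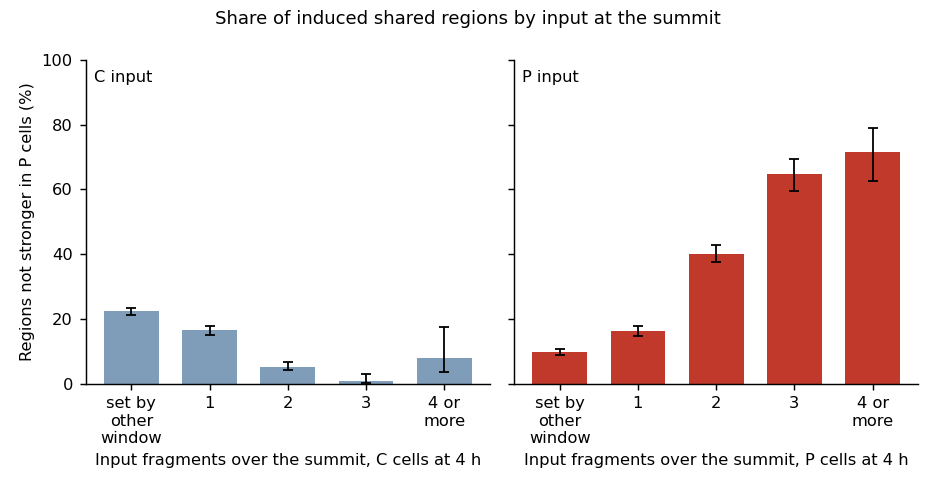
Share of induced shared regions that were not stronger in P cells, in percent, by the number of input fragments over the summit in C cells (left) and in P cells (right), where "set by other window" means that a wider window or the genome average gave the background. Bars are shares and error bars are 95% Wilson intervals, which treat regions as independent and leave out the spread between cultures. The share rises to 71.4% with the P input and falls to 0.9% at 3 fragments of the C input, directions that the rule favours because the input is part of the fold.

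At the non-stronger regions the counting error of the fragments was large against the differences. With a median of about 20 fragments per summit, the 95% interval of the P/C fragment ratio (exact, conditional on the sum of both counts) held 1 at 1640 of the 1778 regions, or 92.2%. Over all induced shared regions that interval held 1 at 62.71%. It lay below 1 at 22 regions, or 1.24% (0.82 to 1.87), where the share over all induced shared regions was 0.235%. It lay above 1 at 116 regions, or 6.52%, where the share over all induced shared regions was 37.1%. These intervals are not corrected for the number of regions, and the fold enrichment that chose the regions contains the same fragments, so they describe single regions and do not set the 22 apart from counting error. They also leave out the spread between cultures, which is unknown here.

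The strongest non-stronger regions by −log10 p were bound in both populations with fold enrichments well above the median. The first lay at chr2:118708848-118709274, enriched 43.1-fold in C and 32.7-fold in P cells. It held 85 fragments in C cells and 130 in P cells, a ratio of 1.53 (1.15 to 2.03), over a background of 1.00 and 3.00. The second, at chr2:68634101-68634470, was enriched 41.4-fold and 33.6-fold from 81 and 100 fragments. At both regions the P cells had more fragments and more input fragments over the summit. The third lay at chr15:27407309-27407812 and was nearly equal in both populations. Its fold enrichment was 43.3 and 40.8, from 72 and 73 fragments and a background of 0.69 and 0.81. The fourth, at chr5:29715145-29715543, had 68 and 107 fragments and was enriched 37.99-fold and 35.95-fold. The fifth lay at chr11:79532570-79533032, with 66 and 110 fragments and an enrichment of 36.9-fold and 27.7-fold. The sixth lay at chr6:118885806-118886145, with 70 and 86 fragments and an enrichment of 33.4-fold and 28.96-fold. In all 6 the P library had more fragments, and in 3 of them, the first, the fourth and the fifth, the interval of the fragment ratio lay above 1. Over all induced shared regions these shares were 87.7% and 37.1%.

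The regions with the lowest P/C fold, among those with a C −log10 p of at least 20, differed in their fragment counts. The background was higher in P cells at all of them, which their choice by fold favours. At chr6:34345916-34346226 the fold enrichment was 25.3 in C and 6.66 in P cells, a log2 ratio of −1.93. There were 45 and 19 fragments, with a ratio of 0.42 (0.23 to 0.74), and the background was 0.82 and 2.00. At chr11:60228943-60229387 the fold enrichment was 24.96 and 7.09, from 37 and 14 fragments, with a ratio of 0.38 (0.19 to 0.72) and a background of 0.52 and 1.11. At both of these regions the interval lay below 1, although they were picked as extremes of a fold that contains the same fragments. At the other 4 it held 1. At chr15:61285370-61285631 the fold enrichment was 14.8 and 3.99, from 21 and 23 fragments over a background of 0.49 and 5.0. At chr2:5996266-5996535 it was 14.5 and 4.49, from 23 and 26 fragments over 0.65 and 5.0. At chr4:83811187-83811468 it was 13.4 and 4.33, from 22 and 25 fragments over 0.72 and 5.0. These 3 had slightly more fragments in P cells, and 5 input fragments lay over each summit there. At chr1:137830314-137830601 the fold enrichment was 19.7 and 6.19, from 38 and 30 fragments over a background of 0.98 and 4.0. The interval of the fragment ratio there, 0.47 to 1.31, held 1.

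The 22 regions whose interval lay below 1 were singled out after their values were seen and are given as a description. Their fragment ratios ran from 0.38 to 0.56. The lowest was at chr13:47677914-47678622, with 32 fragments in C and 12 in P cells (ratio 0.38, 0.18 to 0.75) over a background of 0.55 and 0.51, and was enriched 21.2-fold and 8.6-fold. The next was the chromosome 11 region above. A region at chr5:92691724-92691985 had 41 and 16 fragments, enriched 14.04-fold and 10.4-fold. One at chr13:31626537-31626833 had 32 and 13 fragments and a fold enrichment of 16.5 and 8.55. The fifth was the chromosome 6 region above, and the sixth lay at chr6:92240855-92241144, with 47 and 20 fragments and a fold enrichment of 24.1 and 10.9. The one with the highest C fold enrichment was at chr14:21020309-21020662. It was enriched 44.8-fold in C and 23.4-fold in P cells, from 68 and 34 fragments (ratio 0.50, 0.32 to 0.77), over a similar background of 0.54 and 0.49. That C fold enrichment was the highest of all 1778 regions. One induced shared region outside the 1778 also had an interval below 1. It lay at chr13:4152183-4152497, had 32 and 16 fragments, and its fold enrichment was 11.03 in C and 11.6 in P cells over a background of 1.99 and 0.46.

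**Figure D4:**
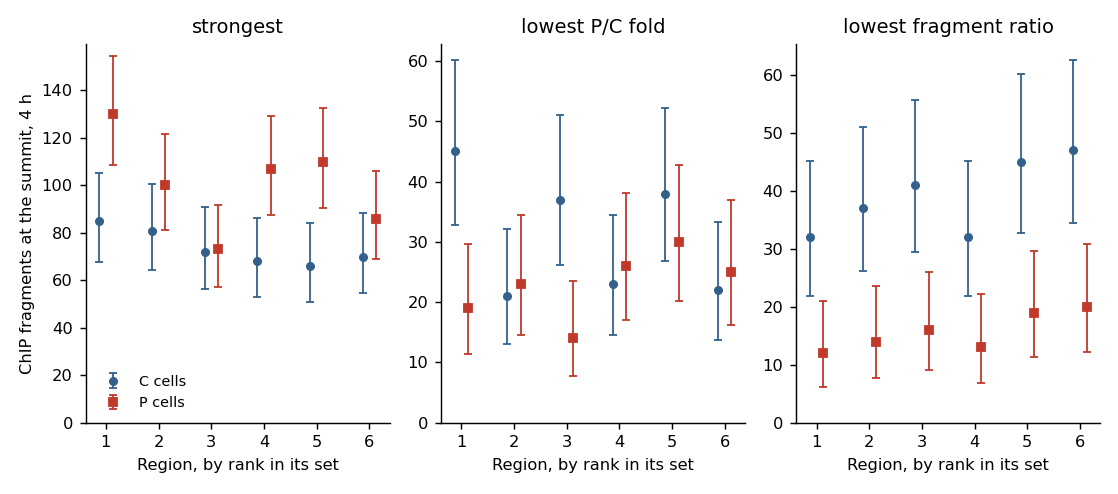
ChIP fragments at the summit in C cells (blue circles) and P cells (red squares) at 4 h for the 6 strongest non-stronger regions, the 6 with the lowest P/C fold and the 6 with the lowest fragment ratio, each numbered by its rank in its set (1 and 3 in the middle panel are those on chromosomes 6 and 11), with exact 95% Poisson intervals. P cells had more fragments at all 6 of the strongest regions, at 3 of the 6 with the lowest fold, and at none of the 6 on the right, which were chosen for that.

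The 4 regions with the highest P/C ratio of background were taken among those with a −log10 p of at least 10 in both lists. At chr9:88377956-88378241 the background was 0.48 in C and 4.00 in P cells. Fragments there numbered 24 and 57, a ratio of 2.38 (1.45 to 4.00), while the fold enrichment was 16.9 and 11.6. At chr1:45732655-45733022 the background was 0.49 and 4.00, with 13 and 30 fragments (2.31, 1.17 to 4.82) and a fold enrichment of 9.40 and 6.19. At both regions the fragment count and the fold enrichment pointed in opposite directions. The third of the 4 was the chromosome 2 region with 5 input fragments. The fourth lay at chr16:86141675-86141981, with 22 and 24 fragments over a background of 0.54 and 4.00 and a fold enrichment of 14.95 and 4.99. At the last 2 the interval of the fragment ratio held 1 (0.62 to 2.07 and 0.59 to 2.04).

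The P fold lay within 10% of the C fold, on either side of the threshold, at 11.01% of all induced shared regions. The 3 nearest regions on each side were taken, among those with a −log10 p of at least 10 in both lists. Just inside the threshold lay regions at chr2:79786331-79786616, at chr3:115451353-115451701 and at chr1:78638839-78639109. Their fold enrichments were 13.72, 7.33 and 7.0 in C cells and 13.71, 7.32 and 6.99 in P cells. Just outside lay regions at chr9:54655653-54655922, at chr15:48778362-48778699 and at chr3:112982447-112982653, with fold enrichments of 15.12, 9.48 and 9.48 in C cells, and in P cells of 15.12, 9.49 and 9.49. The first of these was higher in P cells only past the digits given. The 3 just outside had 23, 13 and 13 fragments in C cells and 31, 18 and 18 in P cells, and the 3 just inside had 21, 11 and 14 against 28, 21 and 13.

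Membership was next set against the strength of binding. Over deciles of the induced shared regions ordered by the geometric mean of the C and P fold, 31.8% (29.0 to 34.8) of the weakest decile were non-stronger and 8.6% (7.0 to 10.5) of the strongest. Ordered by the geometric mean of fragments the share went from 23.0% to 12.9%. Fragments were not higher in P cells at 21.6% of the regions in the lowest decile of that order and at 4.5% in the highest. Ordered by the C fold alone the share rose instead, from 2.8% to 32.7%, and by the P fold alone it fell from 69.0% to 1.2%. These orders all use values that enter the rule, so none of these trends is an independent relation with the strength of binding, and the rule directly favours the last 2, since a high C value or a low P value helps a region meet it.

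The distance between the C and P summits differed between the 2 sets by less than its interval. The C and P summits lay a median of 16 bp apart (quartiles 7 and 32) at the non-stronger regions and 16 bp (7 and 34) at the other induced shared regions. They were within 50 bp of each other in 86.7% (85.1 to 88.2) and 85.6% (84.9 to 86.4) of regions. At 81 of the 1778 regions (4.56%, against 4.25% of all induced shared regions) the summits were over 100 bp apart. The median peak width was 250 bp (C) and 236 bp (P) at the non-stronger regions, and 231 bp and 286 bp at the others. As in the whole set of induced shared regions (99.33%), nearly all of the regions, 1774 of 1778 (99.78%), were made of 1 peak per list, and the other 4 of 2 C peaks and 1 P peak. The widest of these 4 lay at chr2:46376655-46377584, enriched 10.18-fold and 8.24-fold. The next lay at chr6:137530853-137531559, enriched 10.98-fold in P cells at 0.832 times the C value, and at chr1:80022512-80023108, enriched 12.6-fold and 9.49-fold. Their fragments numbered 16, 26 and 26 in C cells and 32, 32 and 37 in P cells.

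The regions were spread over chromosomes 1 to 19 and X, and none lay on unplaced sequence. The share of induced shared regions that were non-stronger ran from 14.6% on chromosome 16 to 25.1% on chromosome 5. Chromosome 5, with 137 of 546 regions (21.6 to 28.9), was the only one of 20 whose interval did not hold the overall 18.2%, and the intervals are not corrected for the 20 comparisons. There the median log2 P/C ratio of fragments over all induced shared regions was 0.55, the lowest of any chromosome, against 0.88 on chromosome 16. P fragments were not above C fragments at 18.7% (15.6 to 22.2) of the chromosome 5 regions, against 12.3% of all induced shared regions and 8.2% to 14.5% on the other chromosomes. The scaled background ratio of chromosome 5, with a median log2 of 0.06, was the same as on many other chromosomes. In windows of 25 Mb along chromosome 5 the share lay between 20.6% and 30.5%, above 18.2% in each window, but the intervals of 5 of the 7 windows held 18.2%. Chromosome 18 had the next highest share, 21.8% (17.6 to 26.8), with a median log2 ratio of fragments of 0.69 and of scaled background of 0.23.

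**Figure D5:**
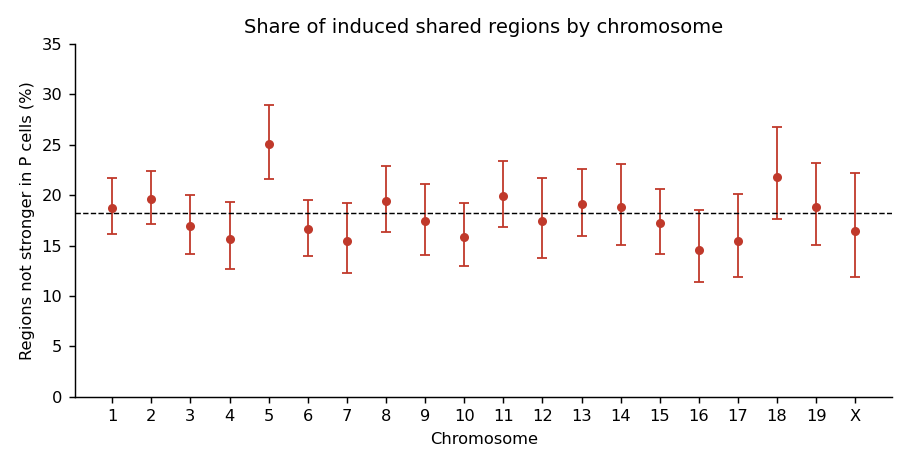
Share of induced shared regions that were not stronger in P cells, in percent, for each chromosome. Error bars are 95% Wilson intervals, which treat regions as independent, and the dashed line is the overall share of 18.2%. Chromosome 5 stands at 25.1%, and the intervals of the other 19 chromosomes hold the overall share.

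Non-stronger regions were mostly scattered among the stronger ones. Of the 1778, 355 (19.97%, 18.2 to 21.9) had another non-stronger region as their nearest induced shared neighbour, against 17.9% (17.1 to 18.8) of the other regions. By distance, the shares were 23.5% of 68 regions and 15.4% of 331 within 1 kb, 16.3% and 16.9% from 1 to 10 kb, 23.9% (20.8 to 27.4) and 17.4% (16.0 to 18.9) from 10 to 50 kb, and 17.99% and 19.2% beyond 50 kb. Regions that are each other's neighbour count at both ends, which the intervals do not allow for. The intervals were apart in the class from 10 to 50 kb and overlapped in the others. Consecutive non-stronger regions formed 1157 runs of 1, 226 runs of 2, 52 runs of 3, 2 runs of 4 and 1 run of 5. The longest lay at chr12:27001213-28076959. Its 5 regions had median folds of 14.2 (C) and 9.99 (P) and log2 ratios from −0.83 to −0.03. At all 5 the P cells had more fragments and a higher background, against 87.7% and 56.7% of all induced shared regions. The runs of 4 lay at chr18:57364157-57646227 and at chr8:8054198-8454264, with more fragments in P cells at 4 and 2 of their regions.

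The nearest day −2 summit of either population was a median of 241.6 kb away from a non-stronger region and 221.7 kb from the other regions, or 213.3 kb when those were weighted to the same C −log10 p. A day −2 summit within 10 kb was found for 106 of the 1778 regions, or 5.96% (4.95 to 7.16), and for 6.11% of the others. In 3 stretches where at least 10 consecutive P peaks had 3 or more times the genome background, membership was counted separately. The stretch at chr10:106637893-107797365 held 1 non-stronger region among 10 induced shared ones, that at chr10:116120529-118049559 held 4 of 24, and that at chr2:77756057-77865019 held 2 of 4. The share over all induced shared regions was 18.2%. These counts are small, and the stretches were chosen by the P background, which is the denominator of the P fold.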

How the data were processed

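C/EBPβ ChIP-seq peak lists of 3T3-L1 cells, 1 per condition, were analysed. According to the study's methods, the authors sequenced on an Ion Torrent instrument, aligned unique reads to mm9 with Bowtie 0.12.8, removed duplicates, equalised read numbers with SAMtools 1.3.1 and called peaks of each ChIP library with MACS2 2.0.10.20131028 down to a −log10 p of 5. Input is the background. The deposited fold enrichment is a ratio of fragments to local background at the summit, with 1 added to both terms, and the deposited −log10 p is from a Poisson model. The lists had similar recovered depths, and the effects of depth and of immunoprecipitation efficiency on the comparison were not tested. A local background made of few input reads carries their counting noise into the fold. The authors' tag in peak names reads 5 h in the 4 h lists.

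Peaks overlapping by 1 bp or more were merged (Python 3.11.15, pandas 2.3.3, numpy 2.4.6). Fragments and background were recovered from fold and −log10 p (scipy 1.17.1) within 0.001 of the deposited −log10 p, with the same recovery tested on simulated data. Depth assumes a genome size of 2.7e+09 bp. Shares have 95% Wilson intervals (statsmodels 0.14.6) and medians binomial order-statistic intervals. Both treat the regions of 1 pair of libraries as independent draws. Fragments have exact Poisson intervals, which cover counting error only. None of these intervals covers the spread between cultures. A whole number of input fragments was called within 0.001. The regions and lists were chosen with earlier results of these data known. Named regions were the 6 with the highest lower −log10 p of both lists, the 6 with the lowest fold ratio at a C −log10 p of at least 20, the 3 nearest to either side of the threshold and the 4 with the highest background ratio (both at a −log10 p of at least 10 in both lists), the 3 with most peaks, and the 3 longest runs. Others were singled out after their values were seen. Figures were drawn with matplotlib 3.10.9. Alternatives were another measure, rescaling, stricter thresholds and stricter overlap. Gene lists and motifs planned for an mm9 annotation were not analysed here.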

Additional observations from a re-analysis of the deposited data

How the results depend on the processing

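For 9 results, 44 values were recomputed under 10 other settings. Of these, 34 lay inside the reported interval, or for the number of regions within a factor of 1.5, while 10 lay outside it. The settings that only filter regions keep mostly the same ones, so their values are not independent of the reported ones. A similar number of regions can also hold different regions. The sign of the median log2 P/C ratio of the measure that chooses the regions is fixed by the rule. A stricter −log10 p of at least 10, a fold enrichment of at least 5, stricter overlap, main chromosomes and single peaks kept between 88.4% and 100% of the 1778 regions. The −log10 p of at least 10 moved the share with summits within 50 bp to 89.1% and the median distance to a day −2 peak to 264 kb, a setting that also leaves fewer day −2 peaks. When −log10 p replaced fold enrichment, 16.8% of induced shared regions were not stronger in P cells, with a median log2 ratio of −0.34, and 1418 of the 1778 were among them. With fragments the share was 12.3%, or 1205 regions, with a median log2 ratio of −0.19. Of the 1778, 809 (45.5%) were among them. Dividing the P values by the median P/C fold of 1.52 takes 50.005% of the regions by construction, or 4894, with a median log2 ratio of −0.44. Scaling each background to its genome background gave a median log2 ratio of background of 1.01. No paired analysis was possible because each group holds 1 sample, and leaving out a replicate was not possible either. About 20 fragments per summit limit single regions, and the spread between cultures is unknown.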

Other observations

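Regions shared at 4 h that already had a day −2 peak are not among the 1778, and the same fold comparison was made there. Fold enrichment was not higher in P cells at 291 of 1745 such regions, or 16.7% (15.0 to 18.5), against 18.2% of the induced shared regions. The share was 33.3% (27.9 to 39.3) of 261 regions with a day −2 peak in C cells alone, 11.4% (9.5 to 13.5) of 977 with one in P cells alone and 18.3% (15.2 to 21.9) of 507 with one in both. By fragments the shares were 28.0%, 2.6% and 5.9%, and 7.3% over all 1745. Regions called at day −2 in C cells alone thus had the highest share of both kinds, with a median fold enrichment at 4 h of 14.7 in C and 18.6 in P cells.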
